A study of Mus musculus with 8 samples.

Results

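The mitochondrial ribosomal protein genes are taken here as the nuclear genes whose symbols start with Mrpl or Mrps followed by a digit. In the count tables, 77 of the 24015 gene symbols met that rule. Of these, 48 are Mrpl symbols and 29 are Mrps symbols, and all 77 passed the filter on low counts. Mrpl symbols stand for the large subunit and most Mrps symbols for the small one. Mrps18a and Mrps30 encode large subunit proteins, and the protein of Mrps36 is no mitoribosome subunit. They were followed in murine embryonic fibroblasts (MEFs), connective tissue cells from wild type embryos of stage E12.5 on a C57bl/6 background, used at passages 15 to 18. The untreated group held 2 RNA-seq libraries. The other group held 2 libraries from cells given 100 units/mL of murine recombinant interferon-beta (IFN-beta) for 6 h. The labels number the libraries within each group but name no separate cultures, so each p-value is set against library-to-library spread alone, part of which may be technical. The series also lists 4 chromatin samples that were not analysed here.

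The mitochondrial ribosome, or mitoribosome, stands in the mitochondrial matrix and translates the few messenger RNAs of the mitochondrial genome, which encode core subunits of the respiratory chain and ATP synthase. Its ribosomal RNAs come from the mitochondrial genome. Its proteins are all encoded in the nucleus, made in the cytosol and imported. Some descend from bacterial ribosomal proteins, while others were gained in the mitochondrial lineage and have no bacterial counterpart. Nuclear genes for mitochondrial proteins are commonly driven by the factors NRF1, the ETS family member GABP and YY1. Interferon-stimulated genes instead carry interferon response elements in their promoters.

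Promoter sequence was examined first, since the gene family rule did not use it. RefSeq windows (build GRCm38.p6) of 300 bases, from 250 before to 50 after a start site, were found for 68 of the 77 genes, and 3 genes had more than 1 window. Each motif was searched on both strands, and overlapping matches of different motifs were allowed. The ETS motif CCGGAAG stood in 25 of 68 genes (36.8%), against 20.6% of 9079 tested genes with a window and 9.93% of all 27025 genes with one. The NRF1 motif GCGCATGCG stood in 7 (10.3%, against 4.31% and 1.95%), and the YY1 motif AAGATGGCG in 8 (11.8%, against 3.70% and 1.64%). At least 1 of these motifs was present in 35 of 68 genes (51.5%), compared with 26.6% of tested genes. Cytosolic ribosomal protein genes held at least 1 of them at a similar share (51.6% of 64), and respiratory chain and ATP synthase genes at 39.4% of 66. By motif, the shares in these families, in that order, were 40.6% and 24.2% (ETS), 4.69% and 12.1% (NRF1) and 6.25% and 10.6% (YY1). The interferon response element core GAAANNGAA was found in 7 of 68 genes (10.3%), against 8.61% of tested and 9.76% of all genes. TATAAA was found in 5 (7.35%), against 8.76% and 15.7%. The interferon response element core stood in 18.8% of cytosolic ribosomal protein genes and in 10.6% of respiratory chain and ATP synthase genes. The windows of the 68 genes had a median GC content of 58.2%, against 61.3% for tested genes. These shares are descriptions of letters in a window and do not show that a factor binds there.

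**Figure D1:**
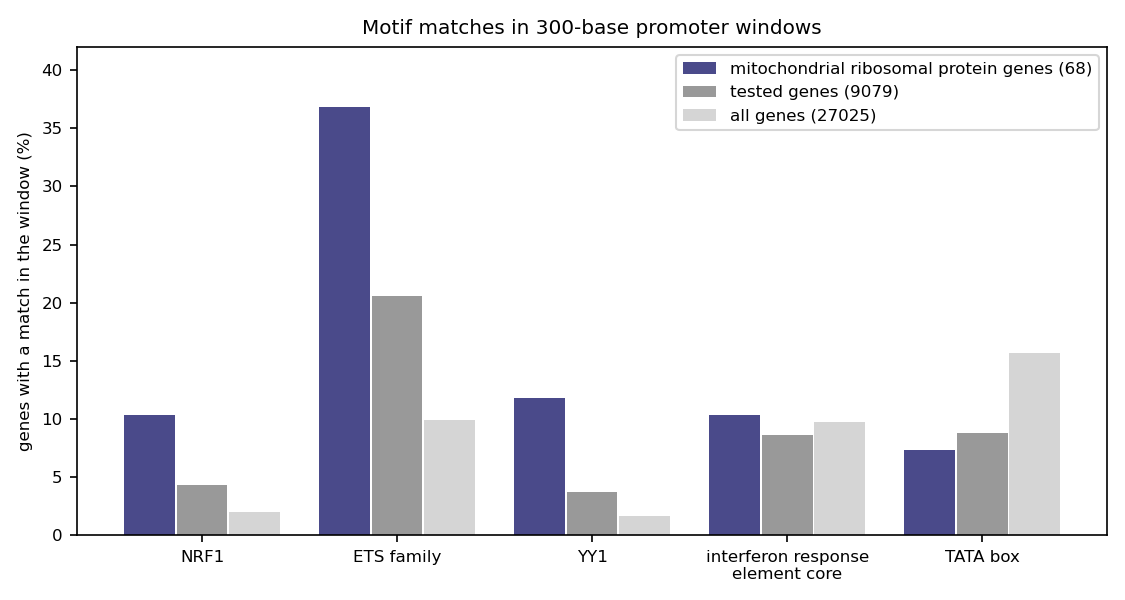
Share of genes (y axis, percent) with a match to each motif (x axis) in the RefSeq promoter window, for the mitochondrial ribosomal protein genes, the tested genes and all genes with a window. The ETS family bar of the mitochondrial ribosomal protein genes reaches 36.8%, above the tested genes at 20.6%, while the bars for the interferon response element core lie at 10.3% and 8.61%.

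The upstream bases of Mrps18a and Mrpl32 show what such windows look like. Mrps18a encodes a large subunit protein and was the 1 gene of the 68 with ETS, YY1 and interferon response element matches together. Mrpl32, whose protein is matured by a mitochondrial protease, held matches to the NRF1 motif at more than 1 place. Both are printed 5′ to 3′ on the strand of the gene, from 100 bases before the start site up to it, with motif matches in capitals. Mrps18a lies at chr17:46110904-46111003 on the plus strand and Mrpl32 at chr13:14613038-14613137 on the minus strand (GRCm38.p6).
Mrps18a: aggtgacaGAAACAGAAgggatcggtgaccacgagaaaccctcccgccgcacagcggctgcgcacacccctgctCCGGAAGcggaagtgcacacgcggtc
Mrpl32: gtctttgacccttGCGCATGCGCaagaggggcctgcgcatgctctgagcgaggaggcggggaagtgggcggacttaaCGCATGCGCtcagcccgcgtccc
The capitals in Mrps18a mark the interferon response element core, which begins 92 bases before the start, and the ETS match, which begins 26 bases before it. Its YY1 match begins at base 12 of the transcript and is not shown. The capitals in Mrpl32 mark NRF1 matches, the first of them a palindrome that matches on both strands.

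Total gene counts per library ran from 18528685 to 24817342, and the 77 genes held between 55350 and 87303 of them, 719 to 1134 counts per gene on average. Rn45s, Lars2 and Mir6236 together took 5.94% and 7.52% of the untreated and 14.5% and 13% of the IFN-beta gene counts. Untreated replicate 1 gave the highest level of the 4 libraries for 51 of the 77 genes (34.8% of all tested genes). The fibroblast label was checked against its markers, of which 12 of 12 had a mean of at least 1 CPM, with a summed level of 6479 to 7667 CPM (counts per 1000000 counts of the library, scaled by TMM). Vim alone gave 2283 to 2888 CPM of that sum, while Lum was at 1.01 to 4.21 CPM. Dcn differed between replicates, at 40.9 and 19.6 CPM untreated and 29.4 and 19.4 CPM treated. Epithelial markers summed to 0.468 to 1.02 CPM, with 0 of 6 at 1 CPM. Endothelial markers summed to 0.936 and 1.06 CPM untreated and 3.14 and 2.02 CPM treated. Of these, 1 of 6 had a mean of at least 1 CPM, and Tie1 and Emcn were at 0 in all libraries. The endothelial marker Cdh5 was at 0.104 and 0.228 CPM untreated and 1.35 and 0.957 CPM treated. It was called higher in the test described below (edgeR adjusted p = 0.014). Leukocyte and macrophage markers summed to 7.56 to 16.1 CPM, with 3 of the 6 in the count tables at a mean of at least 1 CPM. These were Csf1r (4.38 to 6.84 CPM), Lyz2 (8.52 and 2.54 CPM untreated, 3.81 and 1.36 CPM treated) and Cd68 (0.683 to 1.46 CPM). Skeletal muscle markers summed to 3.59 to 7.43 CPM, with 2 of 6 at that mean (Ttn and Acta1) and Myod1, Myog and Myf5 at 0. Neural markers summed to 90.6 to 133 CPM, with 3 of 6 at that mean and Gfap and Olig2 at 0. The neural markers at that mean were Nes (60.8 to 112 CPM), Map2 (16.2 to 25.1 CPM) and Tubb3 (3.53 to 4.82 CPM).

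None of the 77 genes passed the test for a change with IFN-beta. Of 12128 tested genes, 574 (4.73%) were called higher and 60 (0.495%) lower (edgeR, quasi-likelihood F test, p adjusted by Benjamini-Hochberg, threshold 0.05), and 0 of 77 mitochondrial ribosomal protein genes were called in either direction. The lowest adjusted p among them was 0.0947. At an unadjusted p under 0.05, 9 of the 77 were lower and 1 was higher, where all tested genes gave 8.56% lower and 9.60% higher. DESeq2 called 0 of 77 as well, and 5.13% higher and 0.849% lower over all tested genes. So did an edgeR fit with the replicate number as a block (5.71% and 1.28%). The treatment itself was clear in these libraries: all 10 genes of an interferon check list rose, with a median log2 fold change of 10.38. These are bulk libraries, in which fewer cells of a type and less RNA per cell cannot be told apart.

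The intervals around the fold changes were narrow. The log2 fold changes (IFN-beta over untreated) ran from -0.51 to 0.35, with a median of -0.09 against -0.02 for all tested genes. The median standard error of a gene's log2 fold change was 0.15. For 77 of 77 genes the 95% interval of the fold, not adjusted for the number of genes, lay within 2-fold either way, against 80.3% of all tested genes. This was not particular to the family. The share was 98.8% for cytosolic ribosomal protein genes and 97.4% for respiratory chain and ATP synthase genes. The background includes genes with low counts, and 0 of the 77 lay in the lowest of 5 level classes of the tested genes. Differences well inside that range were not resolved with 2 libraries a group.

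**Figure D2:**
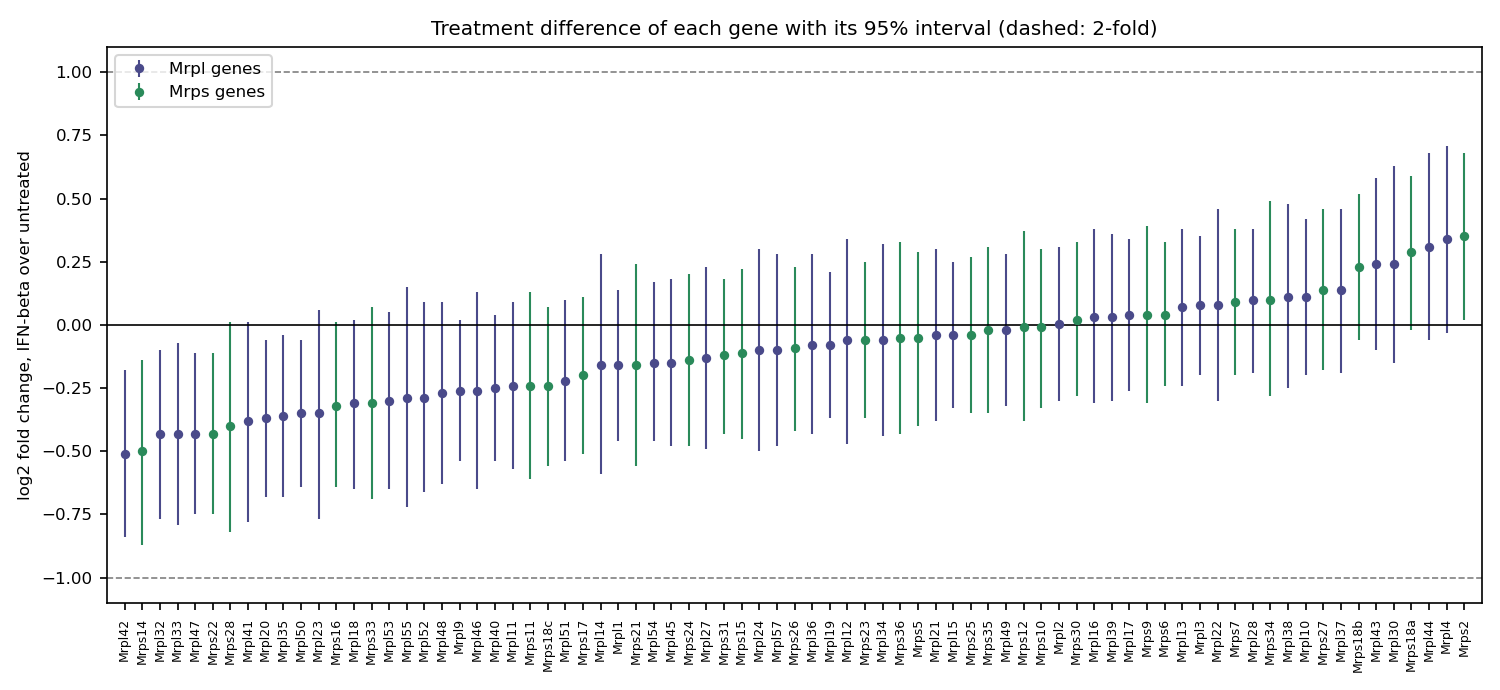
Log2 fold change of each mitochondrial ribosomal protein gene (y axis) with its 95% interval as a vertical line, genes ordered along the x axis and coloured by Mrpl or Mrps symbol, dashed lines at 2-fold. The points run from -0.51 (Mrpl42) to 0.35 (Mrps2), and 77 of 77 intervals stay between the dashed lines.

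More of the genes lay below 0 than above it. The log2 value was below 0 for 53 of 77 genes (68.8%), against 52.6% of all tested genes. In 30 genes (39.0%) both IFN-beta libraries were below both untreated ones, in 13 (16.9%) both were above, and in 34 the groups overlapped. Among all tested genes, 26.8% were below and 23.9% above in this way. The median was -0.12 for Mrpl and -0.05 for Mrps symbols. By role it was -0.08 for 30 large subunit genes with a bacterial counterpart, -0.15 for 20 mitochondria-specific large subunit genes, -0.13 for 16 small subunit genes with a bacterial counterpart and -0.05 for 10 mitochondria-specific small subunit genes. Total library size scaling moved the median of all tested genes to -0.16 and that of the 77 genes to -0.23. Under that scaling 3 of the 77 were called lower (Mrpl42, Mrpl47 and Mrps22), where 2.89% of all tested genes were, and 0 higher (3.94%). With Rn45s, Lars2 and Mir6236 left out of that total, the medians were -0.05 for all tested genes and -0.12 for the 77. Then 0 of the 77 were called in either direction, where 4.63% of all tested genes were called, 0.487% of them all as lower.

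The replicates of each group differed in 1 prevailing direction. The second untreated library was below the first for 60 of 77 genes (77.9%, against 49.1% of all tested genes), with a median log2 difference of -0.21. The second IFN-beta library was above the first for 65 of 77 (84.4%, against 50.4%), with a median of 0.09. The median size of the log2 difference, whatever its sign, was 0.21 between the untreated replicates, 0.10 between the IFN-beta replicates and 0.15 between the groups, against 0.22, 0.14 and 0.20 for all tested genes. A group difference is taken between averages of 2 libraries, so it varies less than a difference of single libraries. IFN-beta replicate 1 was the lowest of the 4 libraries for 48 of 77 genes (30% of all tested genes) and untreated replicate 2 for 16 (17.7%). Summed over the 77 genes, the level was 3782 and 3310 CPM in the untreated and 3102 and 3355 CPM in the IFN-beta libraries, so the second IFN-beta library stood above the second untreated one.

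Single libraries set against each other gave different directions. From untreated replicate 1 to IFN-beta replicates 1 and 2 the median log2 difference over the 77 genes was -0.27 and -0.16. From untreated replicate 2 it was -0.08 and 0.05. Without untreated replicate 2, the fit called 24 of the 77 lower, among them the 6 lowest named below (14% of all tested genes were lower there) and 2 higher, Mrps2 and Mrpl44 (15.3%), with the spread taken from the IFN-beta pair alone. Without untreated replicate 1 it called 0 lower (1.82%) and 1 higher, Mrpl30 (6.91%), and the median of the 77 turned from -0.09 to 0.02. Without IFN-beta replicate 1, 0 of the 77 were called (3.75% higher and 0.192% lower over all genes), and likewise without IFN-beta replicate 2 (4.27% and 0.445%).

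**Figure D3:**
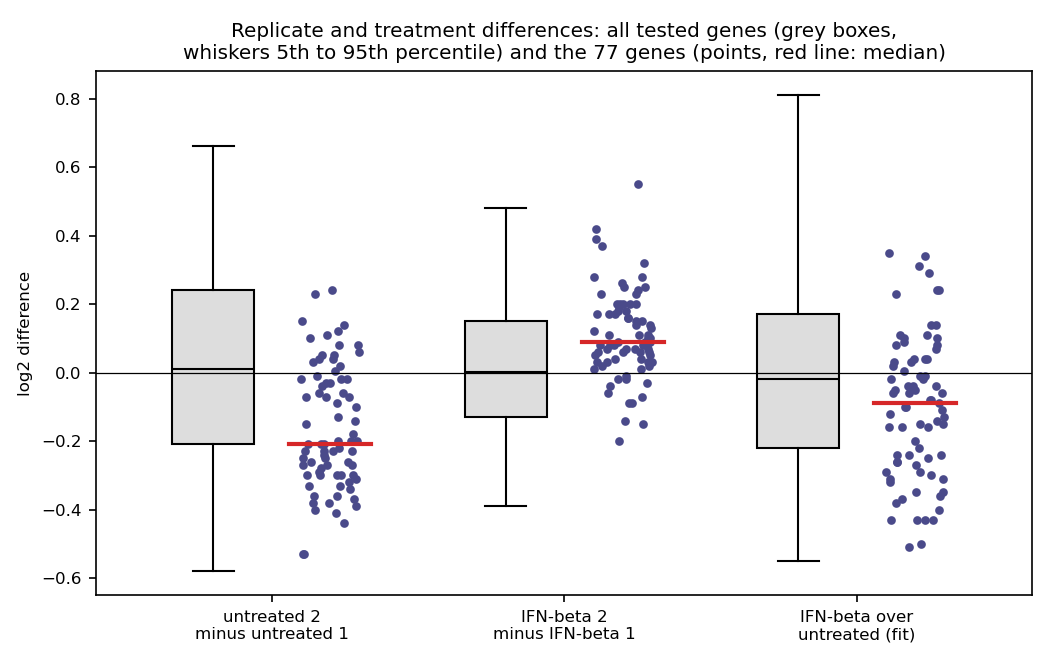
Log2 differences (y axis) between the untreated replicates, between the IFN-beta replicates and between the groups (x axis), for all tested genes (grey boxes, whiskers from the 5th to the 95th percentile) and for the 77 mitochondrial ribosomal protein genes (points, with the median as a red line). The red line lies at -0.21, 0.09 and -0.09.

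Neighbouring parts of the translation and energy machinery moved with the same libraries. Of 84 tested cytosolic ribosomal protein genes, 0 were called and the median log2 fold change was -0.23. The second untreated library was below the first for 95.2% of them, with a median of -0.29. By p-value, Rps16 (0.37, edgeR adjusted p = 0.177) and Rpl7 (-0.38, adjusted p = 0.231) came closest to a call. Of 77 tested respiratory chain and ATP synthase genes of the nucleus, 0 were called, the median was -0.22, and 96.1% were lower in the second untreated library, with a median of -0.34. The complex I gene Ndufb3 was at 44.2 and 33.0 CPM untreated and 26.3 and 26.2 CPM treated (-0.56 ± 0.17 SE, edgeR adjusted p = 0.106), and Atp5s at -0.87 ± 0.29 (adjusted p = 0.147). At an unadjusted edgeR p under 0.05, 17 of the 77 respiratory chain and ATP synthase genes were lower and 0 higher. Of the 84 cytosolic ribosomal protein genes, 7 were lower and 1 higher, where all tested genes gave 8.56% lower and 9.60% higher. The log2 value was below 0 for 84.4% and 85.7% of these 2 groups. Both medians lay further below 0 than that of the mitochondrial ribosomal protein genes. The difference between the gene groups was not tested. What part the library difference has in the values below 0 was not tested.

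The lowest values belonged to genes of both subunits. Mrpl42, which encodes a mitochondria-specific protein of the large subunit, was at 142 and 113 CPM untreated and at 83.0 and 95.5 CPM after IFN-beta. Both treated libraries were below both untreated ones, by a log2 fold change of -0.51 ± 0.15 (SE, 95% interval -0.84 to -0.18, edgeR adjusted p = 0.0947). Scaled to the total library size its adjusted p was 0.0363, and with all genes kept it was 0.0122 (2.28% of genes were lower and 5.16% higher there). Its value was -0.31 without untreated replicate 1. Mrps14, a small subunit protein with a bacterial counterpart, was at 72.5 and 54.8 CPM untreated and 41.2 and 48.3 CPM treated (-0.50 ± 0.17, adjusted p = 0.135). Its groups did not overlap either, but the untreated libraries stood 0.40 apart on the log2 scale. Mrps14 was at -0.27 without untreated replicate 1, and it passed with all genes kept (adjusted p = 0.0243).

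The other 4 of the 6 lowest genes lay at nearly equal values. Mrpl32 was at 60.6 and 52.4 CPM untreated and 38.1 and 45.4 CPM treated (log2 fold change -0.43 ± 0.15). Mrps22, a mitochondria-specific small subunit protein, was at 80.6 and 67.8, then 51.2 and 58.7 CPM (-0.43 ± 0.14). Mrpl33, a small large-subunit protein with a bacterial counterpart, was at 76.5 and 60.9, then 46.0 and 55.8 CPM (-0.43 ± 0.16). Mrpl47, the counterpart of bacterial L29, was at 76.0 and 67.1, then 48.8 and 57.5 CPM (-0.43 ± 0.14). In each of these 4 genes the treated libraries were below both untreated ones, the first untreated library was the highest and the first treated one the lowest. Their adjusted p-values ran from 0.141 to 0.189. Without untreated replicate 1 the values were -0.30 (Mrpl32), -0.28 (Mrps22), -0.23 (Mrpl33) and -0.31 (Mrpl47), and 0 of the 4 passed. Mrpl41, whose protein has also been linked to apoptosis, was at 33.9 and 28.6, then 20.7 and 27.1 CPM (-0.38 ± 0.18, edgeR adjusted p = 0.285). Its treated libraries were also below both untreated ones, and its value ran from -0.59 to -0.20 with 1 library left out in turn.

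The highest values were smaller. Mrps2, a small subunit protein with a bacterial counterpart, was at 23.8 and 27.9 CPM untreated and at 33.3 and 32.8 CPM treated. Both treated libraries were above both untreated ones, by a log2 fold change of 0.35 ± 0.15 (95% interval 0.02 to 0.68, edgeR adjusted p = 0.252). Mrpl4 was at 14.1 and 15.0, then 19.7 and 17.1 CPM (0.34 ± 0.17). Mrpl44, which carries an RNase III-like fold, was at 14.2 and 16.8, then 18.9 and 19.6 CPM (0.31 ± 0.17). Mrpl43 was at 19.3 and 18.5, then 23.0 and 21.6 CPM (0.24 ± 0.15). The treated libraries were above both untreated ones in each of these, at adjusted p-values from 0.252 to 0.452. Scaled to the total library size, the log2 fold changes were smaller: 0.21 (Mrps2), 0.19 (Mrpl4), 0.16 (Mrpl44) and 0.09 (Mrpl43).

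**Figure D4:**
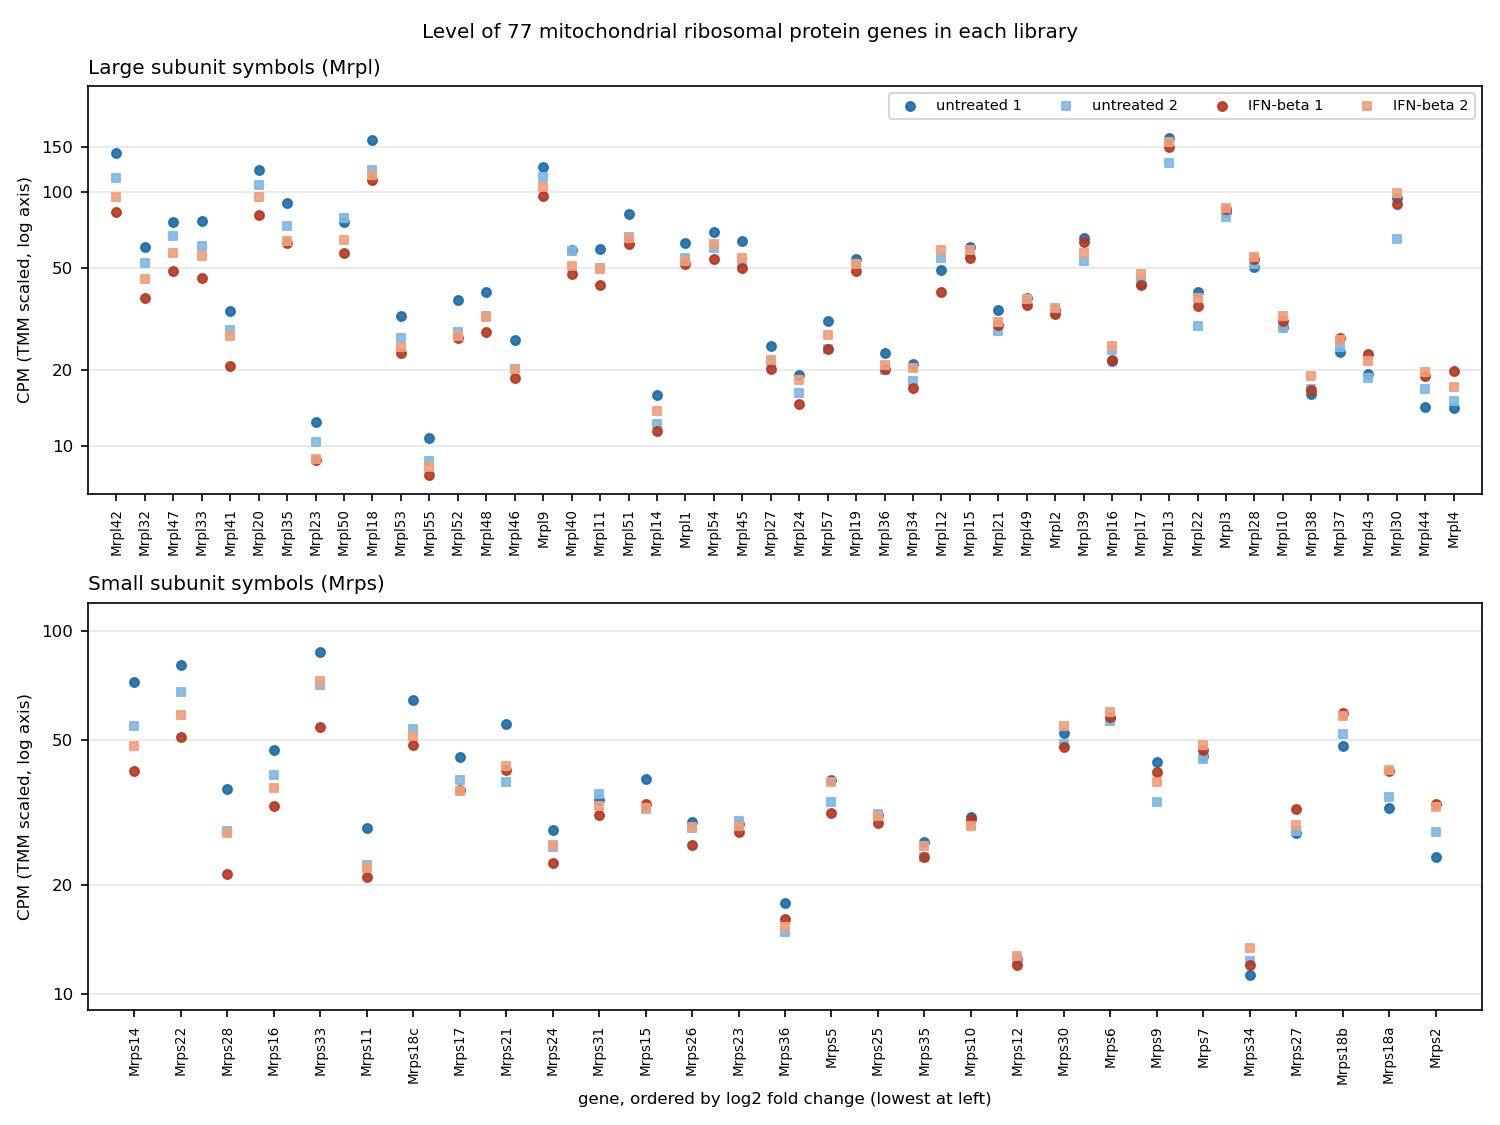
Level of each mitochondrial ribosomal protein gene (x axis, ordered by log2 fold change within Mrpl and Mrps symbols) in CPM on a log axis (y axis), 1 point per library, blue for untreated and red for IFN-beta, circles for replicate 1 and squares for replicate 2. Mrpl42 at the far left of the upper panel runs from 142 down to 83.0 CPM and Mrps2 at the far right of the lower panel from 23.8 up to 33.3 CPM, and in 34 of 77 genes the colours overlap.

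The Mrps18 paralogs had values on either side of 0. Mrps18a, Mrps18b and Mrps18c encode related proteins that take different places, the first in the large and the others in the small subunit. Mrps18a was at 32.5 and 35.0 CPM untreated and at 41.1 and 41.3 CPM treated (log2 fold change 0.29 ± 0.14, edgeR adjusted p = 0.301). Mrps18b was at 48.2 and 52.2, then 59.4 and 58.4 CPM (0.23 ± 0.13, adjusted p = 0.386). In both the treated libraries were above the untreated ones, and the replicates differed by 0.11 or less on the log2 scale. Over the alternative settings the log2 fold change ran from 0.14 to 0.34 for Mrps18a and from 0.08 to 0.29 for Mrps18b. Mrps18c was at 64.5 and 53.8, then 48.5 and 51.4 CPM (-0.24 ± 0.14, adjusted p = 0.401), with the treated libraries below. Mrps18c was at -0.08 without untreated replicate 1, and at -0.37 without untreated replicate 2, where it passed (adjusted p = 0.0255). With all 4 libraries none of the 3 passed the test, and the difference between them was not tested. The interferon response element match in Mrps18a, printed above, has the same 9 letters as one in the window of Mitd1, a neighbour of Mrpl30 described further on. Mrps18c also held such a match, and over the 7 genes with one the median log2 fold change was -0.16, against -0.10 for the 61 without.

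Some genes varied mainly between replicates. Mrpl30 was at 94.2 and 65.2 CPM untreated and 89.4 and 98.5 CPM treated (0.24 ± 0.17), so its untreated replicates stood 0.53 apart on the log2 scale and the groups overlapped. Mrps21 was at 55.5 and 38.4, then 41.3 and 42.5 CPM (-0.16 ± 0.18). Mrpl12, a stalk protein of the large subunit that also binds the mitochondrial RNA polymerase, was at 49.2 and 54.7, then 40.4 and 59.1 CPM (-0.06 ± 0.18). Its treated replicates lay on either side of both untreated ones, 0.55 apart on the log2 scale.

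Among the most counted genes, Mrpl13 was at 162 and 130 CPM untreated and at 150 and 156 CPM treated (0.07 ± 0.14), with both treated libraries between the untreated ones. This value turned to -0.07 with total library size scaling. Mrpl18 was at 160 and 122, then 111 and 116 CPM (-0.31 ± 0.15). Without untreated replicate 1 it was at -0.08, and without untreated replicate 2 at -0.49, where it passed (adjusted p = 8.6e-04). Mrps33 was at 87.4 and 71.1, then 54.6 and 72.9 CPM (-0.31 ± 0.17), with overlapping groups, and its value ran from -0.54 to -0.12 with 1 library left out in turn. Mrps36 carries a ribosomal name, but its protein is known as a subunit of the alpha-ketoglutarate dehydrogenase complex. It was at 17.8 and 14.8, then 16.1 and 15.3 CPM (-0.05 ± 0.17). Transcript lengths were not used here, so levels are not compared between genes.

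Many of these genes start head to head with a neighbour on the opposite strand. In the RefSeq windows, 23 of 68 genes (33.8%) had a diverging start site at most 500 bases away, against 18.3% of tested genes with a window. Of these, 22 had a partner in the count tables. The head-to-head share was not counted for cytosolic ribosomal protein genes or for respiratory chain and ATP synthase genes, so it is not shown to be particular to the family. Among the partners were other genes of translation and energy metabolism: Mrpl46 and Mrps11 start 42 bases apart, Mrpl47 and the complex I gene Ndufb5 308, Mrps12 and the mitochondrial seryl-tRNA synthetase gene Sars2 147, and Mrpl49 and Fau, which encodes a cytosolic ribosomal protein, 192. Mrpl40 starts 113 bases from Hira, which encodes a chaperone that loads histone H3.3. Of 19 distinct tested partners outside the family, 1 was called higher and 0 lower, where 4.73% and 0.495% of all tested genes were.

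The called partner was Mitd1, which encodes a protein that works with the ESCRT-III machinery in the last step of cell division, and which is named here after its values were seen. Mitd1 was at 20.3 and 14.1 CPM untreated and at 76.9 and 80.5 CPM treated. Both treated libraries were far above both untreated ones, by a log2 fold change of 2.20 ± 0.18 (95% interval 1.79 to 2.6, edgeR adjusted p = 2.5e-05). Mrpl30, the large subunit gene that starts 66 bases away on the other strand, had a 95% interval of -0.15 to 0.63, which does not reach that of Mitd1. The untreated replicates of both genes differed in the same direction, by -0.53 (Mrpl30) and -0.52 (Mitd1) on the log2 scale from the first to the second. A difference in that direction was seen in 60 of the 77 genes. Among other pairs, Mrpl46 (-0.38) and Mrps11 (-0.34) went the same way, while Mrpl14 (-0.37) and Tmem63b (0.29) went opposite ways.

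The stretches between start sites are short, as 3 of them show. Each is printed 5′ to 3′ on the strand of the first-named gene, from the partner's first base to the base before that gene's start. They lie at chr1:37890411-37890476 (plus strand, 66 bases), chr7:78783090-78783131 (minus strand, 42 bases) and chr16:18876638-18876750 (minus strand, 113 bases) in GRCm38.p6, and none held a match to the motifs searched.
Mrpl30 to Mitd1: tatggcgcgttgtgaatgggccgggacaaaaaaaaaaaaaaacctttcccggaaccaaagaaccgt
Mrpl46 to Mrps11: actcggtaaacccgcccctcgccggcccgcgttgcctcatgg
Mrpl40 to Hira: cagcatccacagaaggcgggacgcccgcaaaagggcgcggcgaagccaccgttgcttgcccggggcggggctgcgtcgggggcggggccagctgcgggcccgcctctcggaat
The window of Mitd1 held 1 match to the interferon response element core, which begins 237 bases before the start of Mitd1. That places it 171 bases past the start site of Mrpl30, inside the unit that Mrpl30 transcribes. It is shown with its neighbouring bases on the strand of Mitd1, the match in capitals, at chr1:37890629-37890658 (minus strand).
Mitd1 element: cctccaactcGAAACAGAAagaaagtcatt
These letters are a description of the window and not evidence of binding.

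No other pair held a called gene. Mrpl46 was at 26.2 and 20.1 CPM untreated and 18.5 and 20.1 CPM treated (log2 fold change -0.26), and its partner Mrps11 at 28.6 and 22.6, then 21.0 and 22.3 CPM (-0.24). Both were highest in untreated replicate 1. Mrpl47 (-0.43) and Ndufb5 (-0.39, edgeR adjusted p = 0.206) lay below 0 together, and Mrpl49 and Fau were both at -0.02. Mrpl40 was at 59.1 and 58.3, then 47.6 and 51.2 CPM (-0.25), while Hira was at 29.7 and 36.6, then 40.0 and 38.3 CPM (0.24 ± 0.15, adjusted p = 0.446), and neither passed.

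**Figure D5:**
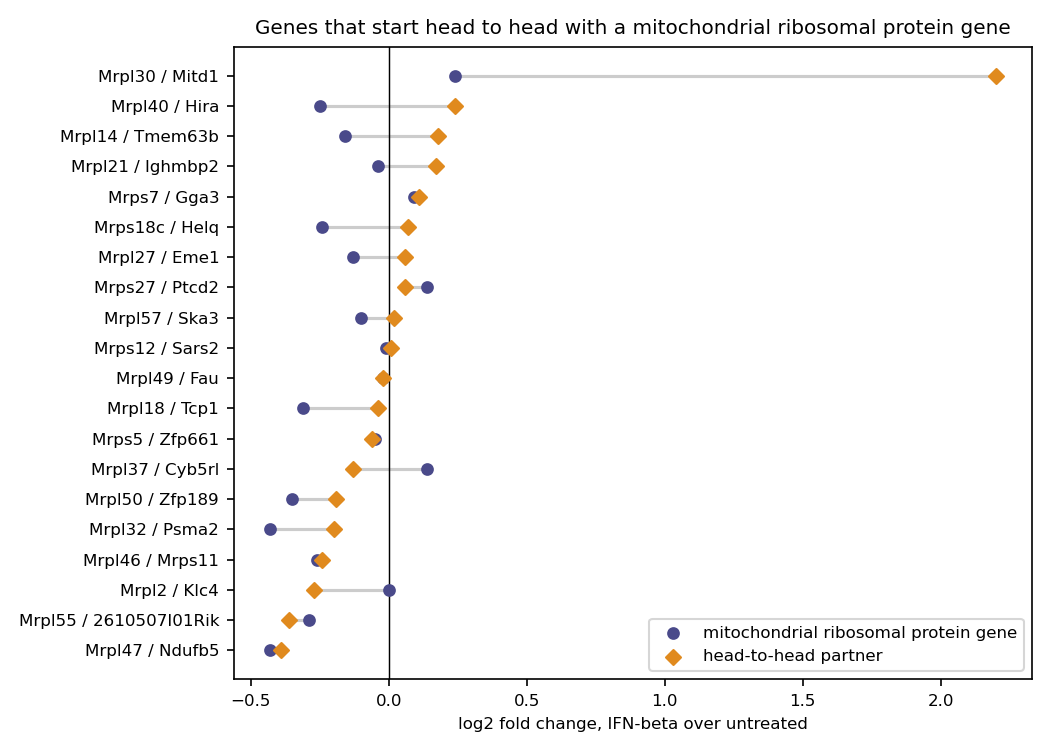
Log2 fold change (x axis) of each mitochondrial ribosomal protein gene (circle) and of the tested gene that starts head to head with it (diamond), 1 pair per line on the y axis. Mitd1 stands alone at 2.20 beside Mrpl30 at 0.24, while the other partners lie between -0.39 and 0.24.

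Genes that work with the mitoribosome gave few calls, where 4.73% of all tested genes were called higher and 0.495% lower. All 6 tested subunit genes under other symbols failed to pass (median -0.13), among them the small subunit genes Chchd1 (125 and 95.7, then 73.3 and 95.5 CPM, log2 fold change -0.38 ± 0.17) and Aurkaip1 (-0.31 ± 0.14). Of 15 tested translation factors, 0 were called (median -0.12), with the release factor gene Mtrf1 at -0.43 ± 0.19 and the elongation factor gene Guf1 at -0.30 ± 0.15. Of 24 tested assembly and ribosomal RNA modification factors, 0 were called (median -0.11). Gtpbp10, a GTPase of large subunit assembly, was at 27.9 and 27.5, then 18.2 and 19.8 CPM (-0.55 ± 0.15, edgeR adjusted p = 0.0740). Gtpbp10 was called lower in 5 of 13 alternatives: total library size, upper quartile, no count filter and without either untreated replicate. Fastkd2, which binds the large ribosomal RNA, was at 90.3 and 84.2, then 64.4 and 64.9 CPM (-0.43 ± 0.13, adjusted p = 0.0929), and was called in 2 of the 13. Unlike the mitochondrial ribosomal protein genes with the lowest values, these 2 had replicates that lay close together.

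In the list of mitochondrial transcription and genome maintenance, 1 of 12 tested genes rose and 0 fell, where 4.73% and 0.495% of all tested genes did. The median of the list was -0.13. The riser was Pnpt1, which encodes polynucleotide phosphorylase, an enzyme that degrades and processes RNA in mitochondria and is a known interferon-stimulated gene. Pnpt1 was at 141 and 106 CPM untreated and 444 and 471 CPM treated (1.89 ± 0.16, edgeR adjusted p = 2.6e-05). Tfb2m, an initiation factor of mitochondrial transcription, was at 51.6 and 51.3, then 37.3 and 33.6 CPM (-0.54 ± 0.14, adjusted p = 0.0517, from 6.7e-04 to 0.437 over the alternatives). Polg2, the accessory subunit of the mitochondrial DNA polymerase, was at -0.65 ± 0.27 (adjusted p = 0.241).

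Among 11 nuclear regulators of mitochondrial genes, 1 rose and 0 fell, where 4.73% and 0.495% of all tested genes did. Their median was 0.14. Myc, a transcription factor that promotes ribosome and mitochondrial biogenesis among much else, was at 33.4 and 44.3, then 72.7 and 62.8 CPM (0.80 ± 0.16, edgeR adjusted p = 0.0185). Myc no longer passed when scaled to the total library size (adjusted p = 0.0558), nor when IFN-beta replicate 1 was left out (0.0828). Yy1 was at 98.8 and 91.2, then 79.8 and 75.9 CPM (-0.29 ± 0.13, adjusted p = 0.265), and Hcfc1 at 0.31 ± 0.15 (adjusted p = 0.311). Split by motif match, the 68 genes with a window gave the following values. The median log2 fold change was -0.11 for the 8 genes with a YY1 match and for the 60 without, and -0.10 and -0.11 for those with and without an ETS match. For the 7 genes with an NRF1 match it was 0.04, against -0.12 for the other 61.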

How the data were processed

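The deposited values were raw read counts per gene symbol, 1 table for each of 4 RNA-seq libraries, not normalized by the authors. Libraries were made from Trizol RNA with a TruSeq kit, per the labels' protocols, and TopHat2 2.0.13, HTSeq 0.7.2 and the mm9 build are named in the submitters' processing notes. For the annotation and the strandedness of counting: not given in the sources used here. Reads of overlapping genes on opposite strands may therefore be mixed. Summary lines that name no gene held 57.3% to 61.3% of all records and were left out.

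The test was the quasi-likelihood F test of edgeR 4.0.16, run under R 4.3.3 (TMM, group as the only term, minimum count 10, minimum total 15), adjusted over all tested genes. The standard error is the log2 fold change divided by the square root of F. Log2 CPM used a prior count of 2. No permutation test was run, because 2 libraries a group allow too few regroupings. The fit was tested on simulated data first. Alternatives were DESeq2 1.42.0, limma-voom (limma 3.58.1), other scalings and filters, a replicate block and each library left out.

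Named genes are the 6 highest and 6 lowest members, the 2 most counted per subunit, the 3 with the largest replicate difference, the Mrps18 genes, Mrps36, Mrpl12 and Mrpl41, and in each list the called members and up to 2 others by p. Mitd1, Hira and the other partners were added after their values were seen. The members and lists were chosen with earlier results of these data known. Protein lengths were not used here, so no level per length is given.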

Additional observations from a re-analysis of the deposited data

How the results depend on the processing

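Over the alternatives, 8 values of single named genes turned sign, 48 passed the threshold only under an alternative, and 2 lost a call. Scaled to the total library size, 350 genes of all tested were lower, with 3 mitochondrial ribosomal protein genes, 1 respiratory chain, 2 assembly and 1 mitochondrial transcription gene among them, and 0 regulators higher. The medians were then -0.23 (all 77 genes), -0.26 (Mrpl) and -0.19 (Mrps), and Mrpl13 was at -0.07. With Rn45s, Lars2 and Mir6236 left out of the total, 59 genes were lower, 0 of the 77 among them. The medians were then -0.12 (all 77 genes), -0.14 (Mrpl) and -0.08 (Mrps). With upper quartile scaling 128 genes were lower, with 1 assembly and 1 mitochondrial transcription gene, the Mrps median was -0.12 and Mrpl13 was at -0.004. With no count filter 863 genes were higher and 381 lower, with 2 mitochondrial ribosomal protein, 5 respiratory chain, 1 assembly and 1 mitochondrial transcription gene lower. DESeq2 called 103 genes lower, with 1 of mitochondrial transcription. With a replicate block, 155 genes were lower, 1 of them a respiratory chain gene, 0 of the 77 genes were called and their median was -0.09. The replicate differences of the groups had a correlation of -0.03 over 12128 genes and -0.17 over the 77, from 1 pair of differences. Some marker genes differed in the same direction by number in the untreated and the IFN-beta group. These included Lum (-1.72 and -1.28 on the log2 scale), Lyz2 (-1.71 and -1.42) and Dcn (-1.05 and -0.59). Others went opposite ways, such as Fn1 (0.65 and -0.31) and Postn (-0.36 and 0.17). Whether a number marks a shared day, batch or culture is not known and was not tested. The cause of these shifts was not tested.

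Leaving out 1 library in turn, with the lone library assumed to vary like the other group, gave 470 to 1885 genes higher and 24 to 1728 lower. Of the 77 genes, 0 to 2 were higher and 0 to 24 lower, and the medians ran from -0.18 to 0.02 (all), -0.24 to 0.0024 (Mrpl) and -0.12 to 0.05 (Mrps). Called higher were 0 to 1 cytosolic ribosomal protein genes, 0 to 1 translation factors, 0 to 1 assembly factors, 1 to 3 mitochondrial transcription genes and 0 to 3 regulators. Called lower were 0 to 50 cytosolic ribosomal protein genes, 0 to 47 respiratory chain genes, 0 to 3 subunit genes under other symbols, 0 to 5 translation factors, 0 to 4 assembly factors, 0 to 2 mitochondrial transcription genes and 0 to 1 regulators. The highest counts in either direction came without untreated replicate 2. Single genes that turned sign ran from -0.0024 (without untreated replicate 2) to 0.55 for Mrpl30, from -0.08 (without untreated replicate 2) to 0.26 for Mrpl13, from -0.36 to 0.02 (without untreated replicate 2) and 0.19 (without IFN-beta replicate 1) for Mrpl12, and, without untreated replicate 1, up to 0.15 for Mrps21 (from -0.40) and 0.11 for Mrps36 (from -0.18). Levels per length and quintiles of protein length were not run.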
